A study of Mus musculus with 6 samples.

Results

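Basophil and mast cell genes are described here in RNA sequencing of sorted mouse long-term haematopoietic stem cells (LT-HSC), which sit in the marrow and can give rise to every blood lineage. The set held 9 genes of the 27179 in the deposited table, all 9 found by matching the table's NCBI gene IDs to RefSeq symbols. They are the granule proteases Prss34, Mcpt8 and Cpa3, the histamine-forming enzyme Hdc, the IgE receptor chains Fcer1a, Ms4a2 and Fcer1g, and the cytokines Il4 and Il6. The genes were chosen with the contrast of control and knockout libraries already known, so their differences between the groups are given as a description, without a test.

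The control group (Prdm16 Cko/Cko with +/+ at Mx1-Cre, labelled WT) and the knockout group (Prdm16 Cko/Cko with Tg/+, labelled Cko) had 3 libraries each. All mice were C57BL/6, 8 to 12 weeks old, carried the conditional Prdm16 alleles on both chromosomes and were given pIpC, an interferon-inducing synthetic RNA, 5 times. The gate, applied 5 weeks after pIpC, took cells without lineage markers or CD48 that carried CD150, c-Kit and Sca-1. Each genotype's cells came from a pool of 5 mice and were split into 3 technical replicates. P-values therefore measure the spread between portions of 1 pooled sort and not between animals. The Mx1 promoter drives Cre in interferon-responsive cells of many kinds and not in stem cells alone, and because the controls lack Cre, an effect of Cre itself and one of Prdm16 deletion cannot be told apart.

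Basophils and mast cells are the granulocytes that bind IgE through the high-affinity receptor FceRI and release histamine, proteases and cytokines when that receptor is cross-linked. Basophils mature in the marrow and circulate, while mast cells settle in tissues and keep the receptor Kit. In the mouse Mcpt8 and Prss34 are proteases of basophils, whereas chymases such as Mcpt4 and Cma1 and the tryptases Tpsb2 and Tpsab1 belong to tissue mast cells. Cpa3, Hdc and the chains of FceRI are shared by both cells, and GATA factors, above all GATA2, are known regulators of both.

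Because GATA factors are the known regulators, a motif of that family was looked for on both strands in the 250 bases before each gene's start in RefSeq promoters (GRCm38.p6). The letters searched were AGATAA. They occur in 4 of the 9 genes, against 9.99% of all 32851 promoter windows of that length. The 4 sequences are shown because these genes share the motif and yet have very different levels in the libraries. Each runs 5′ to 3′ on the gene's strand with AGATAA, or its complement TTATCT, in capitals, and stops short of the furthest annotated transcript start.
Prss34, chr17:25298144-25298393, plus strand: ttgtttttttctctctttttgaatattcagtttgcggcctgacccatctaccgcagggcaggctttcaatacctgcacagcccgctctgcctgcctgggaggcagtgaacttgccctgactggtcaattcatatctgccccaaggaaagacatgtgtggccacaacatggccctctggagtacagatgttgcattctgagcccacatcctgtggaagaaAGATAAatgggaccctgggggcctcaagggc
Cpa3, chr3:20242210-20242431, minus strand: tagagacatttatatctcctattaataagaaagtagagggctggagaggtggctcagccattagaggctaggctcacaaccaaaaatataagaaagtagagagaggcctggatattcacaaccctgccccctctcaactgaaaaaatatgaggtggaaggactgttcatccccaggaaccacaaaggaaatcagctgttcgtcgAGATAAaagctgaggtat
Fcer1a, chr1:173227233-173227479, minus strand: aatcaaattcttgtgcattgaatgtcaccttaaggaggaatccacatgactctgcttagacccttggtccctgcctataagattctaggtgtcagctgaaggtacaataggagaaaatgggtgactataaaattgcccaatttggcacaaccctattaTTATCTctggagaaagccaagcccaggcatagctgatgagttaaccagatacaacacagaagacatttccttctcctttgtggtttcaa
Ms4a2, chr19:11623791-11623969, minus strand: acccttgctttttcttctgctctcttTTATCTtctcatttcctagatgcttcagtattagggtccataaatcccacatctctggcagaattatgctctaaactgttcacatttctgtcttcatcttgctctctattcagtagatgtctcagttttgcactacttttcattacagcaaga

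The motif begins 31 bases before the start of Prss34, 46 before Cpa3 and 92 before Fcer1a. Ms4a2 holds it at 224, 37 and 11 bases, of which only the farthest lies in the printed stretch. The start of the window lies 28 bases inside the furthest annotated transcript start in Cpa3, 3 in Fcer1a and 71 in Ms4a2. The Ms4a2 motifs at 37 and 11 bases therefore lie within the annotated gene. TGATAA occurs in Il6 alone (7.94% of all windows) and the C/EBP-type letters TTGCNNAA in Fcer1a, Il4 and Il6 (9.56%). TGNGGT, a RUNX-type motif, occurs in Prss34, Mcpt8, Cpa3, Fcer1a and Il4 (40.1%), and TTCNNNGAA, a STAT-type motif, in none of the 9 (7.02%). A match is a description of letters and not a site of binding. Il4 has a pair of annotated windows in this table, and a match in either was counted.

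Libraries held 36747729 to 43743795 reads. Levels are given as CPM, the reads recovered from the deposited values divided by the authors' effective library size in megareads. Prdm16 itself had 1381 to 1860 reads in the control libraries and 323 to 643 in the knockout libraries, and these totals take in exons that the deletion may leave in place. Markers of LT-HSC such as Hlf, Mecom and Procr were present in each library, and the 9 on the list summed to 2432 to 2582 CPM in control and 2384 to 2678 CPM in knockout, with none called. Of 13018 genes tested with limma, 53 (0.407%) were called higher and 38 (0.292%) lower in knockout at an adjusted p below 0.05.

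Prss34 (gene ID 328780, chromosome 17, 25298394 to 25300168), a trypsin-like serine protease of basophils, had 0 reads in each of the 3 control libraries. The knockout libraries held 2594, 2300 and 2187 reads, or 70.2, 53.6 and 50.1 CPM. The gene thus went from no read in any control library to a mean of 57.9 ± 10.7 CPM (SD, n = 3), at least 770-fold higher against a floor of 3 reads per control library. That floor corresponds to 0.0688 to 0.0814 CPM and, like the other counting limits here, covers counting error only. Among the 10279 genes of the table without a read in any control library, Prss34 had the third-highest mean in knockout (rank 3), after Igkc, the immunoglobulin kappa constant region, and Epx, the eosinophil peroxidase. Ear1 followed, and Igkv4-55, Mmp8 and Ighv2-9 were also among the leading 8. Only 18030 of the 27179 genes had a read in any library, so most of the 10279 had none in knockout either.

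Mcpt8 (gene ID 17231, chromosome 14, 56082163 to 56085499), the basophil member of the mast cell protease family, also had 0 reads in every control library. It had 452, 920 and 679 reads in knockout, or 12.2, 21.4 and 15.5 CPM, a mean of 16.4 ± 4.66 CPM (SD, n = 3) and at least 210-fold above the floor. Its rank among genes without a control read was 6. Both proteases were absent from all control libraries at this depth and present in all knockout libraries. Absence in every control library with at least 1 CPM in every knockout library occurred in 25 of 27179 genes (0.092%), and the reverse in 2 (0.00736%). Since Prss34 and Mcpt8 were chosen on this contrast, nothing is read from their being among the 25 or from their ranks.

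The balance between Prss34 and Mcpt8 was not constant across the knockout libraries. Mcpt8 made up 14.8% of their combined 3046 reads in replicate 1 (95% Wilson interval 13.6 to 16.1), 28.6% of 3220 in replicate 2 (27.0 to 30.2) and 23.7% of 2866 in replicate 3 (22.2 to 25.3). The 3 intervals do not overlap, so the libraries differed by more than counting error. The intervals cover counting error only, and the median tested gene in knockout varied 31.7 times as much as pure counting. The share was not compared with that of other gene pairs. Replicate 1 had the highest Prss34 and the lowest Mcpt8 level.

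Cpa3 (gene ID 12873, chromosome 3, 20215616 to 20242209), carboxypeptidase A3, is the granule exopeptidase that mast cells and basophils share. It had 499, 440 and 600 reads in control and 468, 445 and 672 in knockout. Control libraries averaged 12.7 ± 0.955 CPM and knockout libraries 12.8 ± 2.51 CPM (SD, n = 3 each), a ratio of 1.01 with overlapping groups. Unlike the other proteases, Cpa3 was transcribed at a steady level in every control library.

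Hdc (gene ID 15186, chromosome 2, 126593659 to 126624025), histidine decarboxylase, makes histamine from histidine. It had 32, 15 and 8 reads in control and 251, 287 and 166 in knockout. Control libraries averaged 0.461 ± 0.308 CPM and knockout libraries 5.76 ± 1.70 CPM (SD, n = 3 each), a ratio of 12.5. The groups did not overlap, and the lowest knockout library stood at 4.8 times the highest control library. Without control replicate 1, which held most of the control reads, the ratio was 19.5.

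Fcer1a (gene ID 14125, chromosome 1, 173221269 to 173227232) encodes the alpha chain of FceRI, the subunit that binds IgE. It had 24, 225 and 74 reads in control and 177, 275 and 330 in knockout, or 2.80 ± 2.92 and 6.25 ± 1.39 CPM (SD, n = 3 each). Control replicate 2, at 6.10 CPM, lay above knockout replicate 1, at 4.79 CPM, so the groups overlapped. The ratio was 2.23 with all libraries and 5.46 without control replicate 2.

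Ms4a2 (gene ID 14126, chromosome 19, 11615517 to 11623790), the beta chain that amplifies the receptor's signal, had 0 reads in every control library and 0, 6 and 69 reads in knockout. Nearly all of its reads came from knockout replicate 3, and it was below 1 CPM in too many libraries to be tested. Its level in knockout was 0.573 ± 0.874 CPM (SD, n = 3).

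Fcer1g (gene ID 14127, chromosome 1, 171229572 to 171234349) encodes the gamma chain, which carries the signalling motif and serves other Fc receptors and platelet receptors as well. It had 1356, 1174 and 1485 reads in control and 1345, 1883 and 2118 in knockout. Control libraries averaged 33.2 ± 1.16 CPM and knockout libraries 42.9 ± 6.10 CPM (SD, n = 3 each), a ratio of 1.29. The groups lay side by side without overlap, with 34.1 CPM in the highest control and 36.4 CPM in the lowest knockout library. The 3 chains of 1 receptor therefore had 3 patterns, with the gamma chain present in every library, the alpha chain variable in control, and the beta chain at 0 reads in 4 of 6 libraries.

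Il4 (gene ID 16189, chromosome 11, 53612460 to 53618665), the type 2 cytokine that basophils release, had 67, 109 and 186 reads in control and 173, 177 and 160 in knockout. The level was 2.96 ± 1.30 and 4.16 ± 0.510 CPM (SD, n = 3 each), and control replicate 3 (4.26 CPM) exceeded knockout replicates 2 and 3 (4.12 and 3.66 CPM). Il6 (gene ID 16193, chromosome 5, 30013114 to 30019975), an inflammatory cytokine, had 0, 0 and 42 reads in control and 0, 5 and 37 in knockout. It summed to 42 reads in each group and came almost wholly from replicate 3 of each, so no difference was detectable at this depth.

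**Figure D1:**
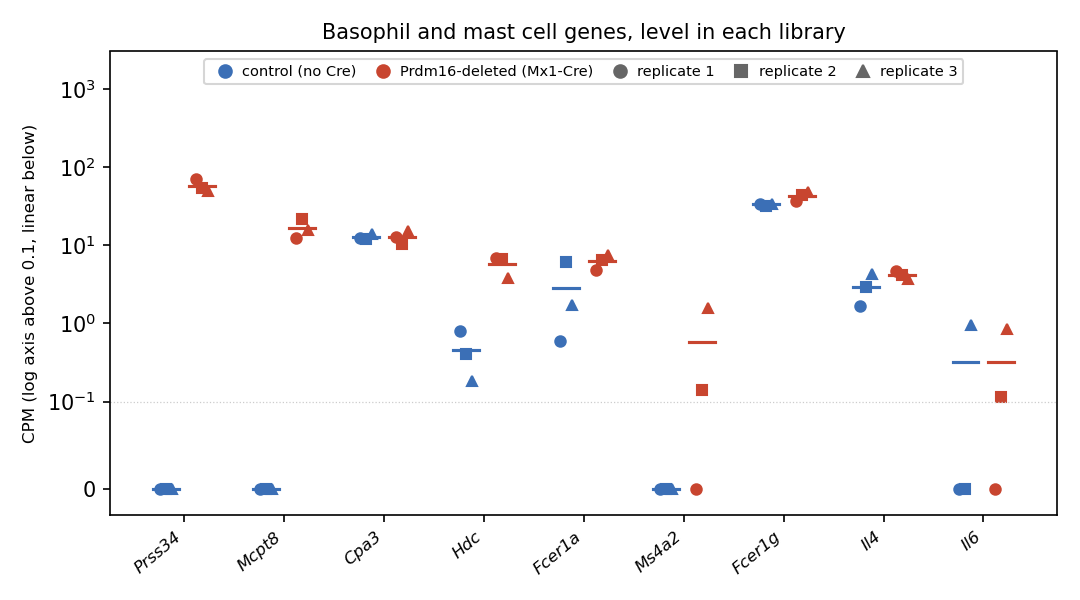
Level of each of the 9 genes in CPM (log axis above 0.1, linear below) in the 3 control libraries (blue) and 3 knockout libraries (red), with group means as bars and replicates as symbols. Prss34 and Mcpt8 sit at 0 in control and at 50.1 to 70.2 and 12.2 to 21.4 CPM in knockout, Hdc is separated at a lower level, and Cpa3, Fcer1a, Il4 and Il6 overlap.

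Of the 9 genes 7 passed the filter for low values and 2 (Ms4a2 and Il6) did not. Among the 7 tested, 2 (Prss34 and Mcpt8) were past the threshold that 0.407% of tested genes passed in the higher direction, and none was past it in the lower direction (0.699% of tested genes passed in either). Every knockout library was above every control library for 4 genes (Prss34, Mcpt8, Hdc and Fcer1g), an arrangement found for 8.52% of tested genes in that direction and 8.01% in the other. These counts describe the contrast used to choose the genes. In bulk RNA, more cells of a type and more RNA per cell cannot be told apart.

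Divided by exon length (union of GENCODE M21 exons, CPM per kb), control levels were led by Fcer1g at 37.9 (range 36.4 to 39) and Cpa3 at 8.36 (7.87 to 9.07), each apart from the next. Fcer1a at 2.80 (0.595 to 6.12) and Il4 at 2.41 (1.35 to 3.48) overlapped, and without control replicate 2 Fcer1a stood at 1.15, below Il4 (2.41). Il6 at 0.132 (0 to 0.397), from control replicate 3 alone, and Hdc at 0.0721 (0.0287 to 0.124) overlapped as well, and Prss34, Mcpt8 and Ms4a2 were at 0. In knockout Fcer1g (49.1 CPM per kb, range 41.6 to 55.5) and Prss34 (47.5, range 41.0 to 57.5) led and did not differ beyond their spread. Mcpt8 followed at 16.4 CPM per kb (12.3 to 21.5), above Cpa3 at 8.44 (6.83 to 10.1), whose range overlapped that of Fcer1a (6.26, 4.80 to 7.57). Below them stood Il4 (3.39 CPM per kb), Hdc (0.901), Ms4a2 (0.204) and Il6 (0.132). Prss34 per unit length thus reached the level of the gamma chain, which every control library already carried.

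Summed over the 9 genes, control libraries held 48.9, 53.3 and 54.9 CPM and knockout libraries 148, 147 and 147 CPM. Without Prss34 and Mcpt8 the sums were 48.9 to 54.9 CPM in control and 65.3, 71.7 and 81.3 CPM in knockout. Prss34 alone gave 47.5%, 36.5% and 34.1% of the reads of the 9 genes in knockout replicates 1, 2 and 3. Most of the difference in the sum therefore lay in 2 genes.

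The spread between portions of a sort varied widely among the genes. As a ratio of the observed variance of reads to that of pure counting, the median tested gene had 30.9 in control and 31.7 in knockout. Fcer1g had 1.57 in control and 34.1 in knockout, Cpa3 2.95 and 21.3, and Il4 23.8 and 2.52, so the lowest ratios in 1 group did not recur in the other. Cpa3, Il4 and Hdc (8.67 in control and 21.4 in knockout) were below the medians in both groups. Above the medians lay Fcer1a (122) and Il6 (37.2) in control, and Prss34 (78.7), Ms4a2 (53.0), Mcpt8 (52.9) and Fcer1g in knockout. The medians cover tested genes of all levels and are not matched to the reads of these genes. Each ratio rests on 3 libraries. On the log2 scale the SD over knockout libraries was 0.26 for Prss34 and 0.41 for Mcpt8. The median SD of genes within 0.5 log2 units of their levels was 0.18 (2660 genes) and 0.30 (1513 genes).

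Both basophil proteases have other serine protease genes beside them on the chromosome, most of them without reads. Mcpt8 lies in a cluster of serine protease genes, and of its 6 protein-coding neighbours on each side 11 of 12 had 0 reads in all 6 libraries, among them the chymases Cma1, Mcpt1, Mcpt2, Mcpt4 and Mcpt9 and the granzymes Gzmd and Gzme. The neighbour with reads was Ctsg, the cathepsin G gene of neutrophil and monocyte precursors, with 0, 0 and 2 control reads and 914, 905 and 944 knockout reads (limma adjusted p = 0.00215). Prss34 lies beside Prss28, Prss29 and the tryptase genes Tpsb2 and Tpsg1, which had no reads apart from 2 of Prss28 in knockout replicate 2. On its other side 5 of 6 neighbours were tested and none was called. Tpsab1, which lies between Prss29 and Tpsb2 and is annotated as a transcribed pseudogene in RefSeq, is not counted among the protein-coding neighbours and also had 0 reads. Apart from Ctsg, the serine protease neighbours of Prss34 and Mcpt8 were thus at or close to 0. The handling of multiply mapped reads is not given in the sources used here.

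**Figure D2:**
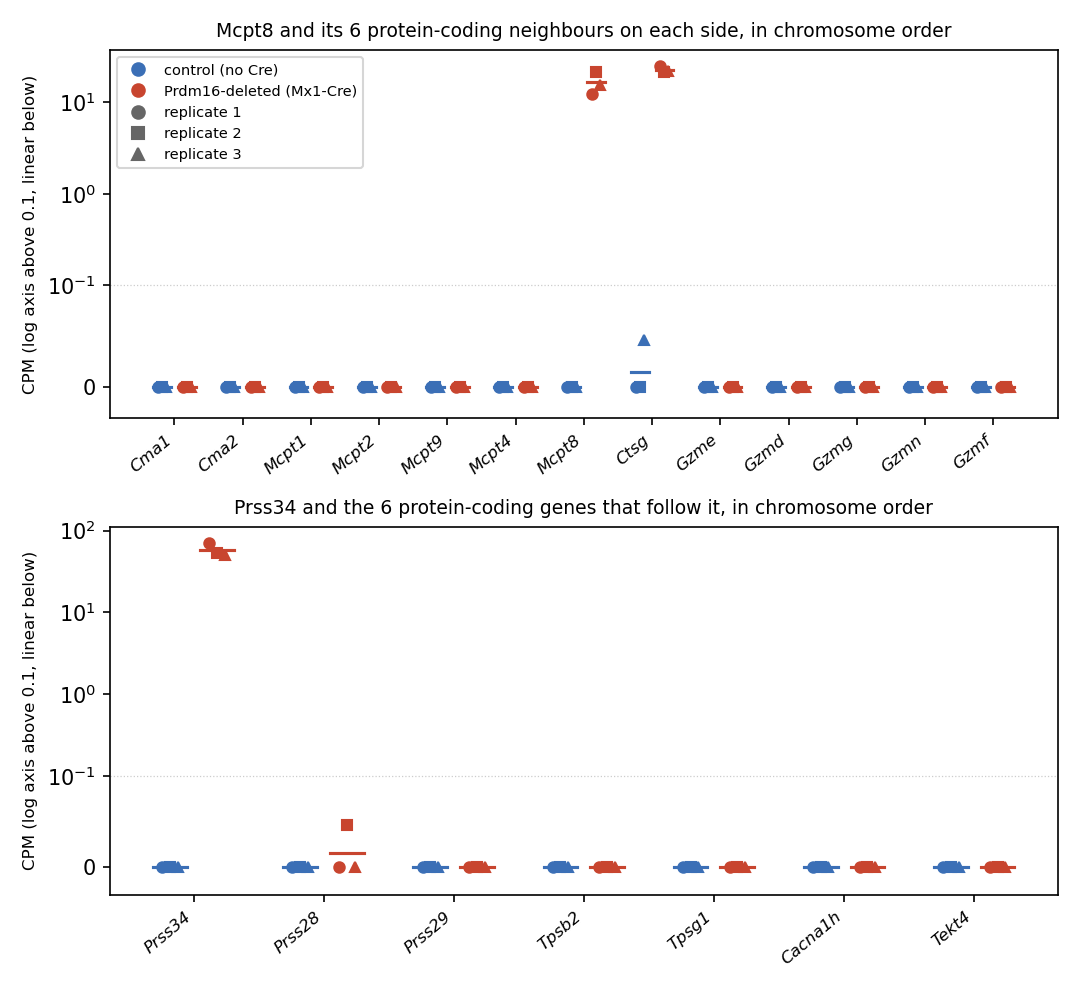
Level in CPM (log axis above 0.1, linear below) of Mcpt8 with 6 protein-coding neighbours on each side (top) and of Prss34 with the 6 protein-coding genes that follow it (bottom), in chromosome order, control in blue and knockout in red, with group means as bars. In the upper panel only Mcpt8 and Ctsg reach above 0.1 CPM, and in the lower panel Prss34 is followed by genes at 0 apart from the 2 reads of Prss28.

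Other members had neighbours with reads. Ms4a2 sits in the Ms4a family cluster, where Ms4a3, a gene of granulocyte precursors, had 0, 118 and 166 control reads and 484, 647 and 713 knockout reads without passing the test (log2 difference 4.79, SE 1.79, adjusted p = 0.382). It passed without control replicate 1, the library with 0 reads (limma adjusted p = 0.0196), and with log2(CPM + 1) (0.0355). Beside Hdc, Atp8b4, a phospholipid-transporting ATPase, had 57, 41 and 64 control reads and 349, 328 and 411 knockout reads (log2 fold change 2.72, adjusted p = 0.0209). Il4 lies between Kif3a and Rad50 together with Il13, which had 0 reads in all 6 libraries. Il5, on the far side of Rad50, had 0 to 51 reads. Near Fcer1g, Pcp4l1 fell (log2 fold change -0.92, adjusted p = 0.0147). Ms4a3, Atp8b4 and Pcp4l1 were picked here after their values were seen. Of the genes that overlap a member on either strand, the table lists 1, A230098N10Rik at Il6, with 0 reads throughout.

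Around the 9 genes, 118 further genes of basophil and mast cell biology were followed in 8 lists, and 82 of them were tested. Only the lists' receptors and transcription factors held called genes, 2 higher (2.44% of the 82, against 0.407% of all tested genes) and 0 lower. An unadjusted p below 0.05 was found for 16 of the 82 (19.5%) and for 1342 of all 13018 (10.3%). The median log2 difference of the 82 was 0.02, beside 0.003 for all tested genes, with 43 values above 0 and 39 below.

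Csf2rb, the beta chain shared by the receptors for IL-3, IL-5 and GM-CSF, was 1 of the 2. It had 12.5, 15.4 and 17.3 CPM in control and 43.5, 31.0 and 53.0 CPM in knockout, with the log2 fold change at 1.47 (limma SE 0.24, adjusted p = 0.0214). Irf8, a transcription factor of monocyte and granulocyte precursors that is also needed for basophil progenitors, had 5.59, 2.03 and 3.88 CPM in control and 32.8, 20.7 and 14.0 CPM in knockout (log2 fold change 2.58, SE 0.44, adjusted p = 0.0315). In both genes each knockout library exceeded each control library. Without the mean-variance trend neither was called (adjusted p = 0.137 for Csf2rb and 0.198 for Irf8), and without control replicate 2 (0.0547 and 0.0526), control replicate 3 (0.0514 and 0.0867) or knockout replicate 1 (0.096 and 0.143) both calls were lost. The Irf8 call was also lost without knockout replicate 2 (0.135) and the Csf2rb call without knockout replicate 3 (0.13). Csf2rb stood at the threshold without control replicate 1 (0.05), and Irf8 was past it neither with voom (0.0636) nor without the low-value filter (0.0586). Csf2rb2, the close copy of Csf2rb that serves IL-3 alone, had 7.0 ± 1.04 and 10.7 ± 2.97 CPM (SD, n = 3 each, adjusted p = 0.57), and the table cannot tell apart reads that both copies could have produced.

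The other 18 genes of that list, among them the GATA factors, were not called. Gata2, the regulator of basophil and mast cell fate, stood at 421 ± 49.0 (control) and 438 ± 33.8 CPM (knockout, SD, n = 3 each, log2 difference 0.06). Gata1 stood at 91.1 ± 3.82 and 115 ± 6.35 CPM (0.34, limma adjusted p = 0.286). Its groups did not overlap, as for 8.52% of tested genes in that direction. Kit, the stem cell factor receptor that both LT-HSC and mast cells carry, stood at 977 ± 57.5 and 867 ± 105 CPM (-0.18, adjusted p = 0.511). The AGATAA motif in the printed promoters stood before genes at 0 in control (Prss34, Ms4a2), 1 at an even level (Cpa3) and 1 variable in control (Fcer1a). Mcpt8, also at 0 in control, has no AGATAA in its 250 bases. The part of GATA factors in these levels was not tested.

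Among 13 mast cell proteases and tryptases none could be tested, since 12 had 0 reads in all 6 libraries and the other was Prss28 with its 2 reads. None of the 7 tested genes for histamine handling and granule storage was called (median -0.23, 6 below 0), and the smallest adjusted p belonged to Cd63, a granule membrane protein, at 415 ± 6.63 and 350.0 ± 31.3 CPM (SD, n = 3 each, -0.25, adjusted p = 0.288). Slc18a2, the transporter that loads histamine into vesicles, and Srgn, the proteoglycan that binds granule proteases, were abundant in every library, with at least 10529 and 35879 reads. In both, every knockout library was below every control library, as for 8.01% of tested genes. An unadjusted limma p below 0.05 was found for 4 of the 7, all with differences below 0, and for 10.3% of all tested genes.

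Of 8 tested leukotriene and prostaglandin genes none was called (median 0.13), Alox5ap being nearest at -0.21 (adjusted p = 0.511). Of 23 tested genes of IgE receptor signalling none was called either (median 0.05), and Lat2, an adaptor below FceRI, was nearest at 0.63 (SE 0.22, adjusted p = 0.357). The kinases Lyn and Syk, which act directly at the receptor, had at least 4432 and 4059 reads in each library. Both kinases were thus detected in every library, while the receptor's beta chain was not detected in control.

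Of 5 tested genes for other Fc receptors and partners of the gamma chain none was called. Fcgr3, an activating IgG receptor that uses the gamma chain, had 65, 50 and 13 control reads and 186, 468 and 405 knockout reads (log2 difference 3.18, SE 0.72, limma adjusted p = 0.109, and 0.0229 with log2(CPM + 1)). Among 12 tested receptors and signalling genes of IL-4 and IL-6 none was called (median -0.06), with Il2rg nearest at 0.23 (adjusted p = 0.488). Il13, Il3 and Csf2, cytokines of activated basophils and mast cells, had 0 reads in all 6 libraries. Among 7 tested surface markers none was called (median 0.86), with Cd69, an activation marker, nearest at 0.86 (SE 0.27, adjusted p = 0.291).

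**Figure D3:**
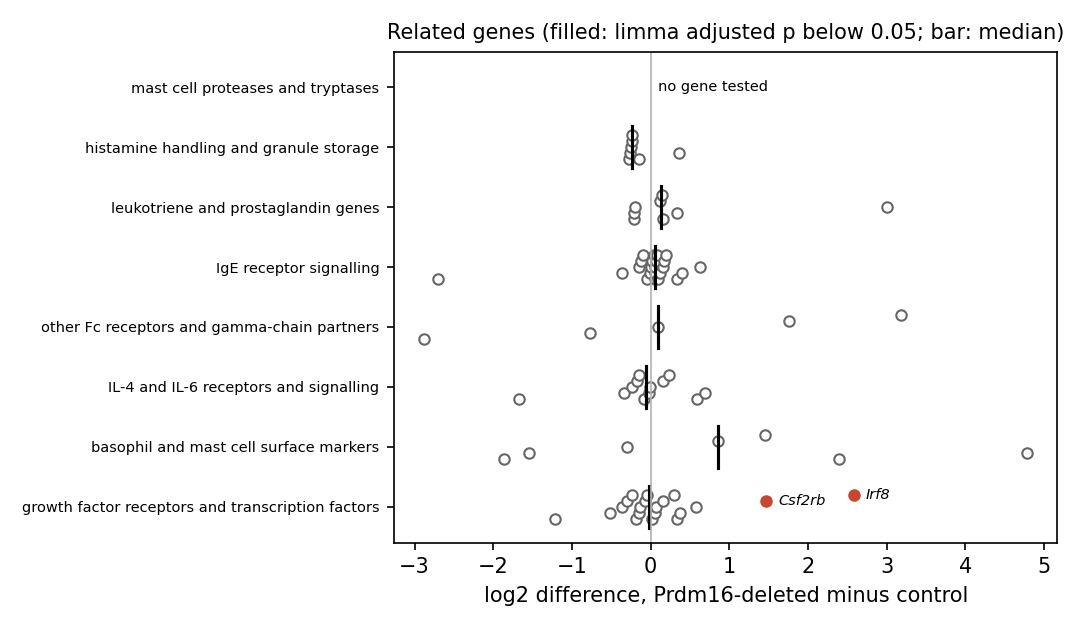
Log2 difference (knockout minus control, horizontal axis) of each tested related gene, in rows by list, with called genes filled and the median of each list as a bar. Only Csf2rb and Irf8 are filled, and the medians lie between -0.23 and 0.13 in all rows but that of the surface markers (0.86).

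Defining markers were compared to see which cell the levels resemble in the library as a whole. Of the 6 mast cell markers, Mcpt4, Cma1, Tpsb2, Tpsab1 and Mrgprb2 had 0 reads in all 6 libraries, and the list's sum (914 to 1027 CPM in control, 748 to 948 in knockout) was Kit alone. Of the 4 basophil surface markers, Enpp3 had 0 reads throughout and Cd200r3 had 59, 0 and 44 reads in knockout and 0 in control. Itga2, the integrin used to sort basophils, had 116, 199 and 154 reads in control and 21, 58 and 120 in knockout (log2 difference -1.55, adjusted p = 0.485), and Il3ra, the IL-3 receptor alpha chain, had 240, 267 and 356 against 164, 410 and 195. The summed basophil surface list lay at 8.81 to 12.6 CPM in control and 6.6 to 10.9 CPM in knockout. Prss34, Mcpt8 and Hdc were thus apart between the groups while the summed surface markers overlapped, and the mast cell chymases and tryptases on the list were not detected. In control that sum was Il3ra (mean 7.11 CPM) and Itga2 (3.93 CPM), which every control library carried. It therefore cannot show whether surface markers followed the proteases, and Cd200r3 had reads in knockout alone.

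Like Prss34 and Mcpt8, marker lists of several other blood cell types were higher in sum in the 3 knockout libraries. All 9 eosinophil markers were tested and 6 were called higher, with a sum of 0.624 to 6.37 CPM in control and 554 to 654 CPM in knockout, and Epx and Ear1 were at 0 reads in every control library. Of 11 neutrophil markers 9 were called higher (95 to 107 CPM against 871 to 1098 CPM), with Mmp8 at 0 in control. Ly6g was not tested, and its groups overlapped (mean 0.49 CPM in control and 0.456 CPM in knockout). Of 10 monocyte and macrophage markers 3 were called higher (573 to 589 against 818 to 930 CPM), with Adgre1 at 0 in control. Most of that sum was Lyz2 (mean 560 and 763 CPM), and Cd68 overlapped (16.1 and 15.0 CPM). Of 8 B and plasma cell markers 1 was called higher (59.8 to 66.1 against 231 to 249 CPM), Igkc at 118 CPM in knockout. Igkc and Ms4a1 were among those at 0 in control, and Ms4a1 also had 0 reads in knockout replicate 1. Most of the control sum was Cd79b, with every knockout library below every control library (mean 61.0 and 45.6 CPM, log2 difference -0.42). Megakaryocyte and platelet markers had 1 of 5 called higher (768 to 860 against 1089 to 1166 CPM). T and NK cell markers (74.8 to 101 against 92.4 to 117 CPM) and erythroid markers (11.8 to 29.8 against 37.0 to 54.4 CPM) had none called. The part of these other cells in the levels of Prss34, Mcpt8 and Hdc was not tested.

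**Figure D4:**
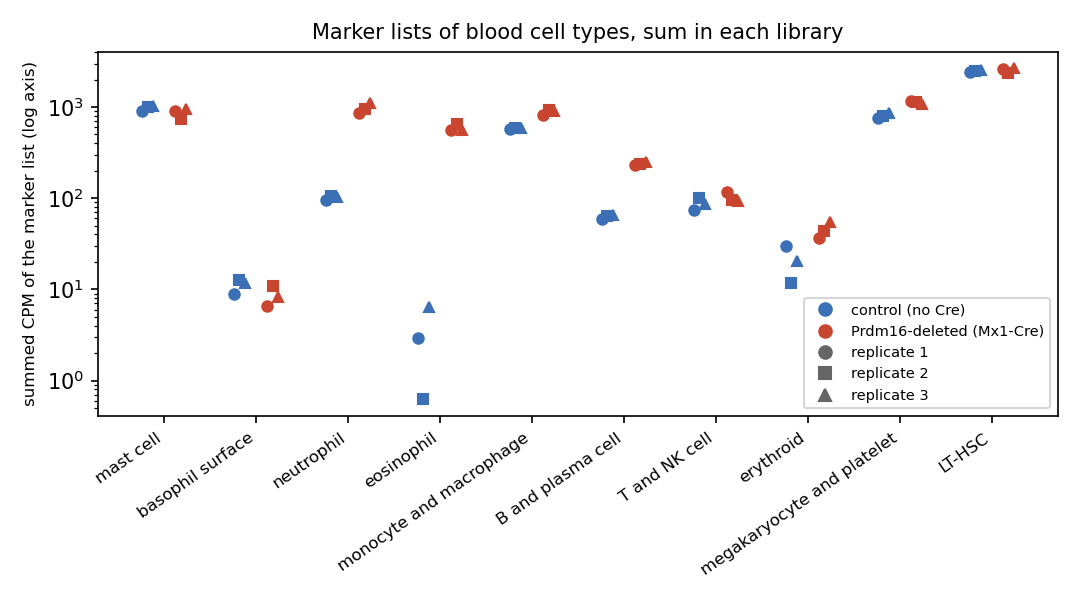
Summed CPM (log axis) of each marker list in the 3 control (blue) and 3 knockout (red) libraries. Eosinophil, neutrophil, monocyte and macrophage, B and plasma cell, megakaryocyte and platelet, and erythroid sums are apart between the groups. The mast cell sum is Kit alone and overlaps, as do the basophil surface, T and NK cell and LT-HSC sums.

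By the 6-library pattern, the genes most like the mean of the 7 tested members were Map3k7 (Pearson r = 0.989), Pcbp4 (0.985), Csf2rb (0.985), Abcf2 (0.984) and Ppp1cb (0.984). The 11915 candidates were the tested genes other than the members and other than predicted models, clones, pseudogenes and IDs without a symbol. Each of the 5 named genes had all knockout libraries above all control libraries, as did 8.52% of all tested genes. An r above 0.9 was found for 235 candidates (1.97%). The r is a description over libraries that share a sort within each group.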

How the data were processed

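RNA of sorted LT-HSC was sequenced in 6 libraries, 3 per genotype. Gene levels were deposited by the authors on a log2 scale, for 27179 genes. The tools listed in the submitters' processing notes are featureCounts, FastQC, HISAT2 and limma, with mm10 as the build. Versions, strand setting and multiple mapping: not given in the sources used here. Each deposited log2 value equals the log2 CPM of a read number plus 0.5, and solving for that number returned whole reads (within 0.01) for 100% of values. Symbols and coordinates came from RefSeq (GRCm38.p6, 25275 IDs matched and 1904 not), and exon lengths from GENCODE M21.

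Genes with a deposited value of at least 1 CPM in at least 3 of 6 libraries (13018) entered a trended limma fit without a block (version 3.58.1, R 4.3.3), adjusted by Benjamini-Hochberg and called below 0.05. The step was tested on simulated data. That simulation gave every gene the same spread and a starting mean of at least 1 CPM. It does not cover genes with 0 reads throughout a group. Figures used matplotlib 3.10.9. A floor of 3 reads per library stood for 0 reads.

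The members, the lists and the motifs were chosen with earlier results of these data known. Named genes were the members, each list's called genes or, with none, the gene of smallest adjusted p, all mast cell and basophil surface markers, the 5 genes most like the members, and the leading genes without control reads. Other genes that the report names, such as chromosome neighbours, Slc18a2, Srgn, Lyn, Syk and Csf2rb2, were picked with their values known. Alternatives changed the filter (none or 5 CPM), the scaling (median or quantile), the variance model (untrended, robust, voom), the offset (log2(CPM + 1)), the block, or left out 1 library. Leaving out each library while keeping the 13018 genes, and doing so for the members' CPM ratios, was added after seeing the data.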

Additional observations from a re-analysis of the deposited data

How the results depend on the processing

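Of all genes, 53 were called higher and 38 lower. The higher count was 83 with no low-value filter and 105 with log2(CPM + 1), and the lower count was 15 without the trend, 59 with log2(CPM + 1) and 23 with a replicate block. The related genes called higher, 2 in the reported fit, numbered 0 without the trend, 4 with log2(CPM + 1) (Csf2rb, Fcgr3, Irf8 and Ms4a3) and 1 with voom, where Irf8 had an adjusted p of 0.0636. With no filter Irf8 was not called either (0.0586), and Il13ra1 was, with 0 reads in every control library and 202, 35 and 61 in knockout. On leaving out 1 library the higher genes numbered 20 to 66, the lower genes 19 to 31 and the related genes called higher 0 to 3. The higher count fell to 20 without knockout replicate 1 (28 on the genes tested in all 6 libraries), 20 without replicate 2 (22) and 24 without replicate 3 (20). The lower count fell to 25 without control replicate 2, 22 without control replicate 3 and 22 without knockout replicate 2 (19), and on those same genes to 24 and 23 without knockout replicates 1 and 3. No related gene was called lower in any of these fits. The cause was not tested. Replicate numbers share only a number, since deviations of same-numbered libraries correlated at -0.0102, -0.0211 and 0.0195, and with the block 2 related genes were called higher. The log2 differences of Prss34 and Mcpt8 were 12.17 and 10.33 as deposited, 10.65 and 8.79 after quantile normalization and 5.87 and 4.09 with log2(CPM + 1). That of Hdc was 3.79 as deposited, 4.23 after quantile normalization and 2.20 with log2(CPM + 1). Ms4a2 and Il6 have too few reads for a difference to be read.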
